A study of Rattus norvegicus with 40 samples.

Results

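The 7 genes of the cytochrome P450 family 4 studied here were Cyp4a1, Cyp4a3, Cyp4a8, Cyp4b1, Cyp4f1, Cyp4f4 and Cyp4v3. They were followed in rat liver across doses of GW7647, a synthetic agonist of the nuclear receptor PPAR-alpha. They were chosen by symbol in the platform annotation and are 7 of 13438 genes with a probe set of their own. Together they have 9 of the array's 31139 probe sets. Cyp4a8 and Cyp4v3 have 2 probe sets each, called brighter and dimmer by their mean signal, and the other 5 genes have 1. Another 4 probe sets name other Cyp4 genes or 2 Cyp4 genes at once, and they are given separately.

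Cytochrome P450 enzymes of family 4 put a hydroxyl group on the last carbon of fatty acids, the omega carbon. Alcohol and aldehyde dehydrogenases then turn the product into a dicarboxylic acid, which peroxisomes shorten. In rodent liver the Cyp4a enzymes are known targets of PPAR-alpha, and Cyp4f enzymes are known for inactivating leukotriene B4 and other signalling lipids.

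The study used adult male Sprague Dawley rats of the SD:CD stock, 4 groups of 10, each rat with 1 array. The groups received the vehicle alone or, per kg body weight and day, 0.1 mg, 1 mg or 10 mg of GW7647 by gavage for 4 days, and pieces of liver were taken 24 h after the last dose. The labels name no genetic change in any group, and they name separate rats. Values are deposited log2 expression values.

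The deposited scale was shifted between groups. The median of all probe sets on an array averaged 2.47 with vehicle, 2.47 at the lowest, 2.60 at the middle and 2.71 at the highest dose. The words rose and fell are therefore kept for probe sets that passed limma's moderated test, with a Benjamini-Hochberg adjusted p below 0.05 among 31042 probe sets, both on the deposited values and after quantile normalization of all 40 arrays. The 24 control probe sets for polyadenylated RNA spiked in ahead of labelling averaged 5.57 with vehicle, 5.84 at the lowest, 6.22 at the middle and 6.56 at the highest dose. Within the 1 mg/kg group arrays 1 to 4 gave 5.25 to 5.70 for these controls, while arrays 5 to 10 gave 6.34 to 7.39, so results at this dose were also computed for each of these sets. The 6 hepatocyte markers measured averaged between 11.7 and 12.1 on every array at 10 mg/kg and between 11.9 and 12.1 on every vehicle array, so the markers of the labelled tissue were present.

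At 10 mg/kg members changed in both directions. Cyp4a1 and Cyp4a3 rose, Cyp4a8 (brighter probe set), Cyp4b1, Cyp4f1 and Cyp4v3 (dimmer probe set) fell, and the remaining 3 probe sets did not pass on both scales. Of the 9 probe sets 2 rose and 4 fell, where 18.2% and 5.86% of all probe sets did. The number that rose was near the share over the array. The Cyp4a8, Cyp4b1 and Cyp4v3 probe sets that fell averaged below log2 5 in every group. The median log2 change of the 9 was -0.02 on the deposited scale, against 0.26 for all probe sets, and -0.33 against -0.01 after quantile normalization. At 1 mg/kg 2 of the 9 rose and 3 fell, beside 9.13% and 3.03% of all probe sets. The 3 that fell came from 2 genes, as both dim Cyp4a8 probe sets were among them, with Cyp4b1. At 0.1 mg/kg Cyp4a1 alone of the 9 rose and 0 fell, beside 0.0387% and 0.00322% of all probe sets, which is 12 and 1 of 31042. At an unadjusted p under 0.05 the number of member probe sets at 0.1 mg/kg was 2, those of Cyp4a1 and Cyp4a3. The shares just given do not apply to this looser threshold. The share of all probe sets that pass it was not computed, so no weight is put on this count.

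**Figure D1:**
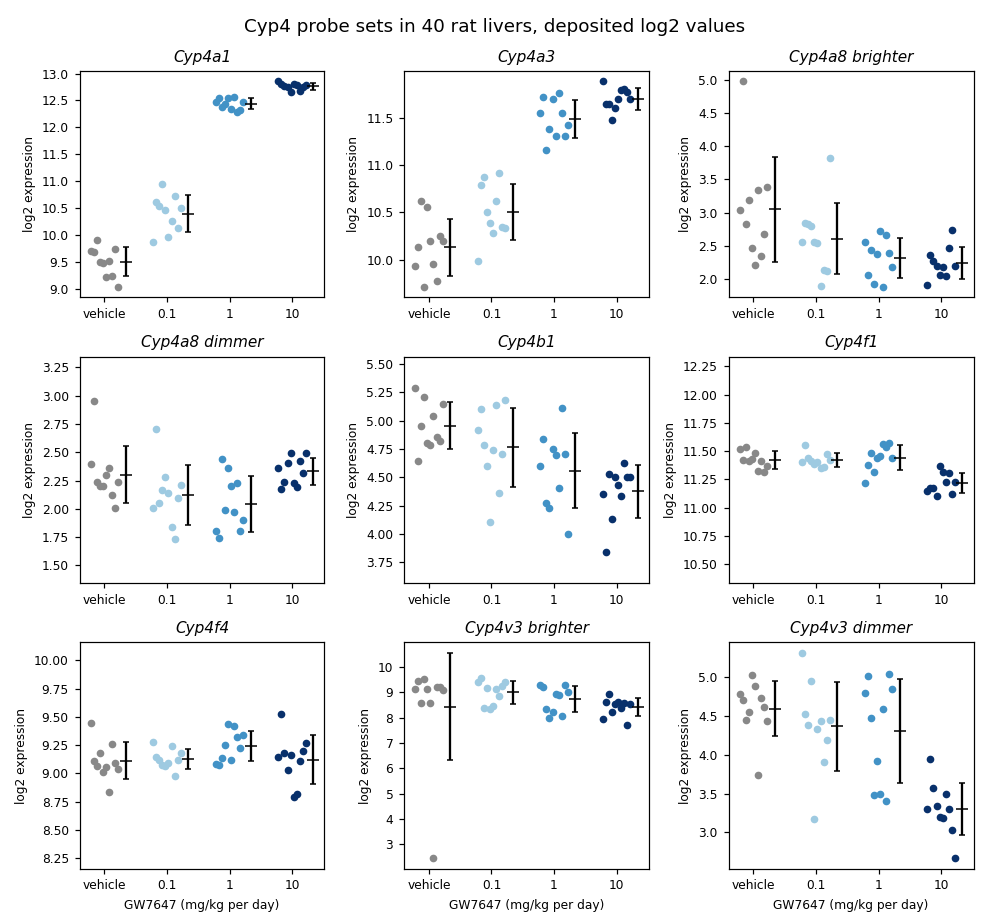
Deposited log2 expression of the 9 Cyp4 probe sets (vertical axes, scaled to each panel) in 10 livers per group, with the vehicle group at the left and GW7647 doses in mg/kg per day after it. Points are arrays, and the line with bars is the mean ± SD; the Cyp4a1 points of the 1 and 10 mg/kg groups lie above all vehicle points, and 1 vehicle point of Cyp4v3 brighter lies at 2.44, far below the others.

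Cyp4a1 encodes the main lauric acid omega-hydroxylase of rat liver. Its lowest, median and highest log2 values were 9.03, 9.51 and 9.91 with vehicle, 9.86, 10.48 and 10.95 in the 0.1 mg/kg group, 12.29, 12.45 and 12.56 in the 1 mg/kg group, and 12.66, 12.77 and 12.86 in the 10 mg/kg group. The 0.1 mg/kg group overlapped the vehicle group by 1 array. Every array at 1 and at 10 mg/kg lay above every vehicle array, as was so for 3.39% and 12.8% of all probe sets. The 10 mg/kg arrays also lay wholly above the 1 mg/kg arrays, as for 2.86% of probe sets in that comparison.

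Against vehicle, Cyp4a1 changed by 0.90 (SE 0.10, adjusted p = 7.12e-07) at 0.1 mg/kg, 2.94 (adjusted p = 4.39e-25) at 1 mg/kg and 3.26 (adjusted p = 5.52e-27) at 10 mg/kg on the log2 scale. The 31042 probe sets were ranked by signed deposited change, from the largest rise down to the largest fall. Cyp4a1 stood at place 9 from the top for the lowest dose, 14 for the middle and 34 for the highest. The lowest dose gave 27.5% of its log2 change at 10 mg/kg and the middle dose 90.0%. With arrays 1 to 4 or 5 to 10 alone the 1 mg/kg change was 2.96 or 2.92. The spread between rats was 0.27 (SD) with vehicle, 0.35 at the lowest, 0.10 at the middle and 0.06 at the highest dose. The highest value of any probe set in the table was 13.58.

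The step from 0.1 to 1 mg/kg was 2.04 for Cyp4a1 (SE 0.10, adjusted p = 2.57e-19). The step from 1 to 10 mg/kg was 0.33 on the deposited scale (adjusted p = 0.0103) and 0.30 after quantile normalization (adjusted p = 0.0349). Its call was lost when arrays were shifted to a common median (0.21, adjusted p = 0.131) or scaled to the hybridisation controls (0.26, adjusted p = 0.203). It was also lost with arrays 1 to 4 alone of the 1 mg/kg group (0.31, adjusted p = 0.126), while with arrays 5 to 10 it was 0.34 (adjusted p = 0.0322, and 0.0752 after quantile normalization). Over all alternatives the adjusted p of this step ran from 4.49e-05 to 0.280.

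Cyp4a3 encodes a related hydroxylase of lauric and arachidonic acid. It read 9.71, 10.16 and 10.62 (lowest, median and highest) with vehicle, 9.99, 10.45 and 10.91 in the 0.1 mg/kg group, 11.16, 11.49 and 11.76 in the 1 mg/kg group, and 11.48, 11.70 and 11.89 in the 10 mg/kg group. At 0.1 mg/kg 3 arrays lay above every vehicle array, and at 1 and 10 mg/kg all 10 did. Its log2 change against vehicle was 1.35 (SE 0.11, adjusted p = 5.27e-13) at 1 mg/kg and 1.57 (SE 0.11, adjusted p = 1.18e-15) at 10 mg/kg. At 0.1 mg/kg it was 0.37 (SE 0.11), with an unadjusted p of 0.00107 and an adjusted p of 0.65.

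Between doses, the log2 change of Cyp4a3 was 0.98 from 0.1 to 1 mg/kg (adjusted p = 2.84e-09) and 0.22 from 1 to 10 mg/kg (adjusted p = 0.103). The change at 0.1 mg/kg, which was not called, equalled 23.7% of that at 10 mg/kg, and the change at 1 mg/kg 86.1%. In the step from 0.1 to 1 mg/kg 2 of the 9 member probe sets rose, those of Cyp4a1 and Cyp4a3, and 0 fell, beside 9.77% and 2.71% of all probe sets. After quantile normalization alone, 2 of the 9 were lower in that step, beside 10.2% of all probe sets. They were Cyp4b1 (-0.54, adjusted p = 0.00152) and Cyp4f1 (-0.16, adjusted p = 0.00957). From 1 to 10 mg/kg 1 rose and 2 fell, beside 8.18% and 4.79%.

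A further probe set, named for both Cyp4a2 and Cyp4a3 and not counted as a member, had a log2 change of 0.18 at 0.1 mg/kg (adjusted p = 0.985). It rose by 0.95 at 1 mg/kg (adjusted p = 3.12e-09) and by 1.30 at 10 mg/kg (adjusted p = 1.61e-13). Its group means were 10.90 ± 0.30 with vehicle, 11.08 ± 0.24 at the lowest dose, 11.85 ± 0.26 at the middle dose and 12.20 ± 0.08 at the highest (SD, n = 10 each). Cyp4a1, Cyp4a2 and Cyp4a3 are close relatives, and cross-reading between their probe sets was not examined.

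In RefSeq's annotation of the GRCr8 assembly, the Cyp4a genes and Cyp4b1 lie together on chromosome 5, in a run of 16 entries of which 10 are Cyp4 genes or pseudogenes. Cyp4a3, Cyp4a1 and Cyp4b1 are direct neighbours at its end, and Cyp4a8 lies near its start. Cyp4f1 and Cyp4f4 lie on chromosome 7 in a run of 25 entries with 8 Cyp4 genes, and Cyp4v3 lies on chromosome 16. At 10 mg/kg Cyp4a3 and its neighbour Cyp4a1 both rose, while Cyp4b1 on the other side of Cyp4a1 fell.

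Promoter sequences of 300 bases, from 250 before to 50 after the transcript start, were held for Cyp4a3, Cyp4a8, Cyp4b1 and Cyp4f1 of the 7 genes. Those of 3 genes from the chromosome 5 run are shown because the Cyp4a3 probe set and the one shared with its near copy Cyp4a2 rose, while the brighter Cyp4a8 probe set fell. They are from RefSeq on GRCr8, 5′ to 3′ on the minus strand, at chr5:134352187-134352486 (Cyp4a3), chr5:134170859-134171158 (Cyp4a2) and chr5:133970177-133970476 (Cyp4a8). Capitals mark AGGTCA, the core sequence bound by many nuclear receptors, searched on both strands.
Cyp4a3: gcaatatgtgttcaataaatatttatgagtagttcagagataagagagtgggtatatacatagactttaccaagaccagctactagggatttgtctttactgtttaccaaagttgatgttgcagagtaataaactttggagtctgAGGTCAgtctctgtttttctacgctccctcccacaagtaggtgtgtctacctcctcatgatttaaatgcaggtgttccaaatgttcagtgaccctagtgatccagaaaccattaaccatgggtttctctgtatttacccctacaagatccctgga
Cyp4a2: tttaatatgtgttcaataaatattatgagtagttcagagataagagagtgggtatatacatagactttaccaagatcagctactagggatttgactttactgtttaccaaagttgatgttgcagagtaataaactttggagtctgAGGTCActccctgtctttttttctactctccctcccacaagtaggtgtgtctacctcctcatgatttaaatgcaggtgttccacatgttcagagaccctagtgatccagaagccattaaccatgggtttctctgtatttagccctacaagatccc
Cyp4a8: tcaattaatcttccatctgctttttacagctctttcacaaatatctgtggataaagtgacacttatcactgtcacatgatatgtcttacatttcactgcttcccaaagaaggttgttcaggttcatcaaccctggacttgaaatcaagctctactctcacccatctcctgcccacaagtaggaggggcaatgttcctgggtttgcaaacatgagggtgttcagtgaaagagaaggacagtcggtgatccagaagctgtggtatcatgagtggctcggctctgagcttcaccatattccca

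The Cyp4a3 and Cyp4a2 windows were 93.1% identical in a global alignment, and each held 1 AGGTCA, beginning at position -105 from the start on the gene's strand. The Cyp4a8 window was 59.1% identical to that of Cyp4a3. No AGGTCA was in the windows of Cyp4a8, Cyp4b1 or Cyp4f1. Of 33469 RefSeq promoter windows of the same length 16.2% held it. The direct repeat of AGGTCA with 1 base of any kind between the copies, the form of a PPAR response element, was searched on both strands with up to 2 mismatches, and none of the 4 member windows held it, beside 3.77% of all windows. Outside the members, the Cyp4f5 window held the repeat with 2 mismatches. Beside Cyp4a2, the relatives Cyp4a2l1, Cyp4f37 and Cyp4f40 also had a window with AGGTCA. The probe set shared by Cyp4f5 and Cyp4f37 met the rule in neither direction at 10 mg/kg. For Cyp4a1, the member with the largest rise, no window was held. The repeat contains the core sequence, so the motifs overlap. Whether either motif goes with the direction of change was not tested.

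Whether Cyp4a1 changed more than other members was tested on the difference between the 2 probe sets on the same array, which does not depend on a shift of the array's scale. The log2 change of Cyp4a1 exceeded that of Cyp4a3 by 0.52 at 0.1 mg/kg (SE 0.12, adjusted p = 3.89e-05), 1.58 at 1 mg/kg (adjusted p = 2.03e-18) and 1.69 at 10 mg/kg (adjusted p = 1.47e-19). From 1 to 10 mg/kg the excess was 0.11 (SE 0.12, adjusted p = 0.501), an interval of 2 SE around it reaching from -0.12 to 0.34. The lack of a call there does not show that both genes changed alike.

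In this test Cyp4a1 differed from 99.7% of the other probe sets at 0.1 mg/kg, from 99.9% at 10 mg/kg and from 20.1% in the step from 1 to 10 mg/kg. In that last step its change exceeded that of Cyp4f1 by 0.55 (adjusted p = 0.000903) and that of Cyp4b1 by 0.51 (adjusted p = 0.0277). It also passed against Cyp4f4 and the dimmer Cyp4v3 probe set. Against the brighter Cyp4a8 probe set it was not called as deposited (adjusted p = 0.170). After quantile normalization that excess was 0.53 and was called (adjusted p = 0.0404). No call was made on either scale against Cyp4a3, the dimmer Cyp4a8 probe set (adjusted p = 0.854 as deposited) or the brighter Cyp4v3 probe set (0.299). At 0.1 mg/kg the excess over the brighter Cyp4v3 probe set was not called either (0.33, adjusted p = 0.462). Against the probe set shared by Cyp4a2 and Cyp4a3 the excess was 1.98 at 1 mg/kg, and 1.96 at 10 mg/kg. In the step between these doses it was -0.02 (adjusted p = 0.928).

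**Figure D2:**
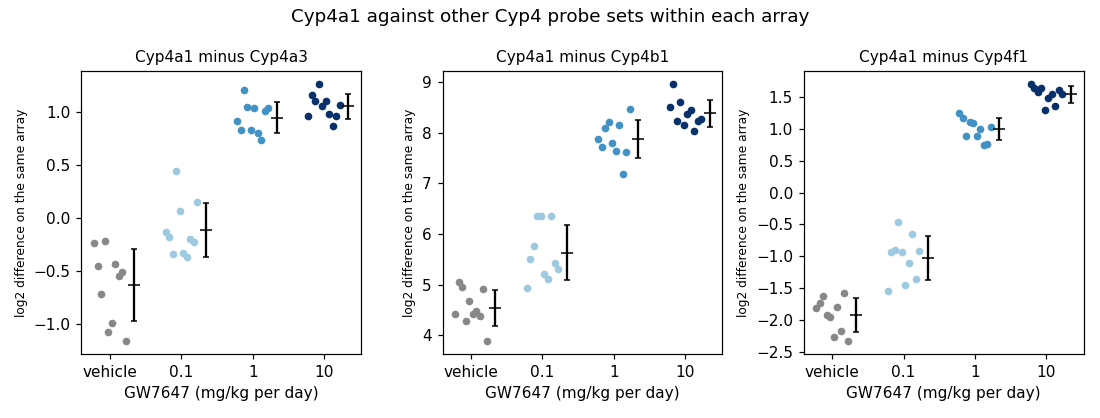
Log2 signal of Cyp4a1 minus that of Cyp4a3, Cyp4b1 or Cyp4f1 on the same array (vertical axes), by group with vehicle at the left and GW7647 doses in mg/kg per day. Points are 10 arrays per group and the line with bars is the mean ± SD; the Cyp4a1 minus Cyp4a3 difference averaged 1.06 at 10 mg/kg, against -0.63 with vehicle.

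Cyp4a8 encodes another member of the Cyp4a subfamily, known from rat kidney and prostate. Its brighter probe set read 2.21, 2.93 and 4.98 (lowest, median and highest) with vehicle, 1.89, 2.56 and 3.82 in the 0.1 mg/kg group, 1.88, 2.38 and 2.73 in the 1 mg/kg group, and 1.90, 2.19 and 2.73 in the 10 mg/kg group. The groups overlapped, and 6 of 10 arrays at 10 mg/kg lay below every vehicle array. It fell by 0.73 at 1 mg/kg (SE 0.22, adjusted p = 0.00888) and by 0.81 at 10 mg/kg (SE 0.22, adjusted p = 0.00164), and its change at 0.1 mg/kg was -0.44 (adjusted p = 0.985). At these dim levels, next to the array medians, the size of a change depends on the background correction.

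The dimmer Cyp4a8 probe set averaged 2.33 ± 0.12 at 10 mg/kg and 2.30 ± 0.26 with vehicle, a change of 0.03 (adjusted p = 0.803). The sign of this small change turned to -0.23 after quantile normalization (adjusted p = 0.0651), -0.21 with a common median and -0.20 with hybridisation control scaling. At the middle dose it fell by 0.26 (SE 0.10, adjusted p = 0.0424). Both probe sets read highest on vehicle array 2. Without that array the brighter one still fell, by 0.52 at 1 mg/kg (adjusted p = 0.0191) and by 0.59 at 10 mg/kg (adjusted p = 0.00325), and the dimmer one changed by -0.19 at 1 mg/kg (adjusted p = 0.114). With arrays 1 to 4 or 5 to 10 alone of the 1 mg/kg group, the brighter one changed by -0.81 (adjusted p = 0.0555) and -0.68 (adjusted p = 0.0506), and the dimmer one by -0.31 (adjusted p = 0.0987) and -0.22 (adjusted p = 0.136).

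Cyp4b1 encodes an enzyme known mainly from lung, which oxidises short fatty acids and activates some foreign compounds. It read 4.64, 4.90 and 5.29 with vehicle, 4.11, 4.76 and 5.18 in the 0.1 mg/kg group, 3.99, 4.65 and 5.11 in the 1 mg/kg group, and 3.84, 4.46 and 4.63 in the 10 mg/kg group (lowest, median and highest). All 10 arrays at 10 mg/kg lay below every vehicle array, by a narrow margin, as for 0.657% of all probe sets. It fell by 0.40 at 1 mg/kg (SE 0.12, adjusted p = 0.0118) and by 0.58 at 10 mg/kg (SE 0.12, adjusted p = 0.000113). The change at the middle dose was -0.47 with arrays 1 to 4 (adjusted p = 0.0263) and -0.35 with arrays 5 to 10 (adjusted p = 0.0699). At 0.1 mg/kg it was -0.19 (adjusted p = 0.985).

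Cyp4f1 encodes a liver hydroxylase of leukotriene B4 and arachidonic acid. It read 11.32, 11.42 and 11.54 with vehicle, 11.36, 11.41 and 11.55 in the 0.1 mg/kg group, 11.22, 11.45 and 11.57 in the 1 mg/kg group, and 11.10, 11.20 and 11.37 in the 10 mg/kg group (lowest, median and highest). At 10 mg/kg 9 arrays lay below every vehicle array. It fell by 0.21 at 10 mg/kg (SE 0.05, adjusted p = 0.000155), and the change was -0.48 after quantile normalization. From 1 to 10 mg/kg it fell by 0.23 (adjusted p = 0.000202), and with arrays 1 to 4 alone of the 1 mg/kg group the change was -0.13 (adjusted p = 0.108). Its change against vehicle was -0.00 at the lowest dose and 0.02 at the middle dose, where the sign turned after quantile normalization (-0.15, adjusted p = 0.0178).

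Cyp4f4, which hydroxylates leukotrienes and arachidonic acid in the rat, read 8.84, 9.08 and 9.45 with vehicle, 8.97, 9.12 and 9.28 in the 0.1 mg/kg group, 9.08, 9.24 and 9.44 in the 1 mg/kg group, and 8.79, 9.15 and 9.53 in the 10 mg/kg group (lowest, median and highest). The groups overlapped. At 10 mg/kg its change was 0.01 (SE 0.07, adjusted p = 0.898) on the deposited scale and -0.29 (adjusted p = 0.00104) after quantile normalization, so it met the rule in neither direction. The interval of 2 SE around the deposited change ran from -0.13 to 0.15.

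Another 3 Cyp4f probe sets lay outside the 7 genes. Cyp4f6, a leukotriene hydroxylase of rat liver, averaged 9.08 ± 0.30 at 10 mg/kg and 9.33 ± 0.28 with vehicle, a change of -0.25 (adjusted p = 0.0697) that became -0.54 (adjusted p = 0.00041) after quantile normalization. Cyp4f17 and the probe set shared by Cyp4f5 and Cyp4f37 were dim, with changes of 0.51 and 0.47 at 10 mg/kg on the deposited scale. After quantile normalization these were 0.28 (adjusted p = 0.248) and 0.24 (adjusted p = 0.206), and neither met the rule.

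Cyp4v3 is the rat counterpart of human CYP4V2, an omega-hydroxylase of medium-chain and polyunsaturated fatty acids. Its dimmer probe set read 3.73, 4.66 and 5.02 (lowest, median and highest) with vehicle, 3.17, 4.41 and 5.31 in the 0.1 mg/kg group, 3.40, 4.52 and 5.04 in the 1 mg/kg group, and 2.67, 3.30 and 3.95 in the 10 mg/kg group. In the 10 mg/kg group 9 of 10 arrays lay below every vehicle array. It fell by 1.29 (SE 0.21, adjusted p = 2.85e-06) against vehicle and by 1.00 (adjusted p = 0.000409) against 1 mg/kg. The step from 1 mg/kg was -1.14 with arrays 1 to 4 and -0.91 with arrays 5 to 10 of that group, and passed with either. The lower doses gave changes of -0.22 and -0.29 that did not pass (adjusted p = 0.985 and 0.306). The 1 mg/kg change, which was not called, equalled 22.3% of the 10 mg/kg change as deposited and 35.3% once quantile normalized. For Cyp4a1 these shares were 90.0% and 90.2%. The Cyp4v3 shares rest on the dimmer probe set, and no error was computed for them. Its 1 mg/kg change of -0.29 had an SE of 0.21. At dim levels the size of a change depends on the background correction. Without the outlying vehicle array described next, the brighter probe set reached a larger share at 1 mg/kg on both scales. Whether Cyp4v3 and Cyp4a1 differ in this share was not tested.

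The brighter Cyp4v3 probe set read 2.44 on vehicle array 7 and 8.58 to 9.51 on the other 9 vehicle arrays. On the other 39 arrays of the study it read 7.71 to 9.58. With all arrays its change at 10 mg/kg was -0.02 (SE 0.48, adjusted p = 0.967). Without vehicle array 7, a choice made after the values were seen, it was -0.69 (SE 0.19, adjusted p = 0.00165), and -1.0 (adjusted p = 4.16e-05) after quantile normalization.

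Vehicle array 7 also gave the lowest vehicle value of the dimmer Cyp4v3 probe set, 3.73. Among probe sets other than controls, the brighter Cyp4v3 probe set was the 1 probe set of that array that read at least 4 log2 units below its group's median. Without this array the dimmer one fell by 1.38 at 10 mg/kg (adjusted p = 9.19e-07). The 1 mg/kg changes without it were -0.38 for both probe sets on the deposited scale (adjusted p = 0.114 for the brighter and 0.163 for the dimmer). After quantile normalization without it, both were lower at 1 mg/kg with an adjusted p below 0.05, so they passed on that scale alone. Over all alternatives run, the lowest adjusted p at 1 mg/kg was 0.0199 for the brighter and 0.0287 for the dimmer.

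**Figure D3:**
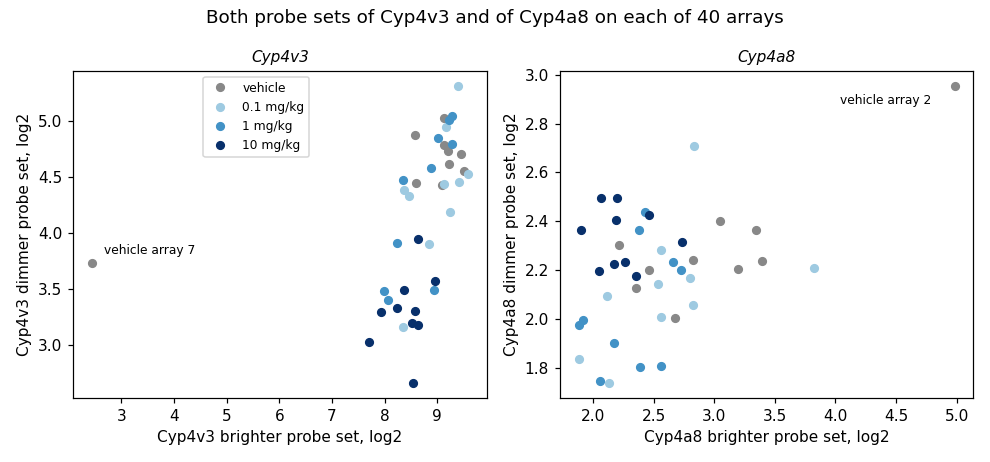
Log2 signal of the dimmer probe set (vertical axis) against the brighter one (horizontal axis) for Cyp4v3 (left) and Cyp4a8 (right), 1 point for each of 40 arrays, shaded by dose. Vehicle array 7 stands apart at 2.44 and 3.73 for Cyp4v3, and vehicle array 2 at 4.98 and 2.96 for Cyp4a8.

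Markers of other cells and of liver zones changed in the same comparisons as the falls of Cyp4a8, Cyp4b1, Cyp4f1 and Cyp4v3, and the shares over all probe sets were those given above for each dose. All 6 macrophage markers measured fell at 10 mg/kg, and their mean on an array ranged from 6.32 to 7.37, against 7.24 to 7.99 with vehicle. All 7 markers of periportal hepatocytes fell, with array means of 8.52 to 9.41 at 10 mg/kg, against 9.82 to 10.3 with vehicle. Of 6 markers of pericentral hepatocytes 1 rose (Glul), a share near that of all probe sets, and 2 fell (Cyp1a2 and Oat). Of 6 general hepatocyte markers 0 rose and 2 fell (Serpina1 and Cps1). In the other direction, 2 of 4 cholangiocyte markers rose (Epcam and Sox9), with array means of 3.19 to 3.99 at 10 mg/kg, against 3.04 to 3.51 with vehicle, and so did Alas2, the 1 red cell marker measured. Kdr fell among 4 endothelial markers, Col1a1 rose and Des fell among 5 stellate cell markers, and 0 of 3 lymphocyte markers passed. At 1 mg/kg, where Cyp4a8 and Cyp4b1 also fell, 3 of 6 macrophage markers fell, with array means of 6.88 to 7.99 that overlapped those with vehicle. At that dose 2 of 7 periportal markers fell as well, with array means of 9.50 to 10.2. The Epcam rise was also seen there. Their part in the Cyp4 results was not tested. In bulk liver tissue, fewer cells of a type and less RNA per cell cannot be told apart.

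**Figure D4:**
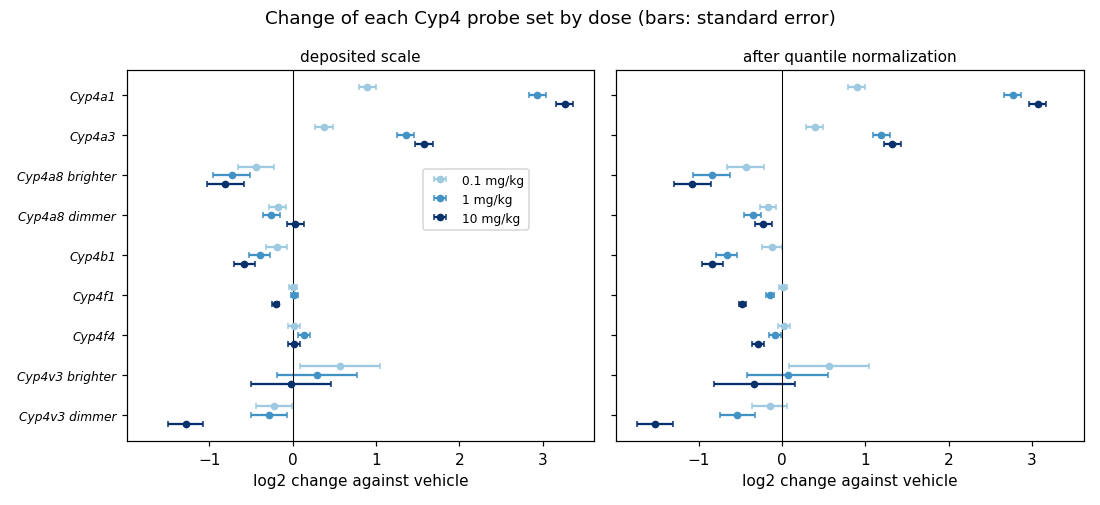
Log2 change of each Cyp4 probe set against vehicle (horizontal axis) at 0.1, 1 and 10 mg/kg of GW7647, on the deposited scale (left) and after quantile normalization (right). Points are differences of group means (n = 10 each) and bars are the standard error; Cyp4a1 reached 3.26 and 3.07 at 10 mg/kg on the 2 scales, and Cyp4v3 dimmer -1.29 and -1.53.

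Within groups, after each group's mean was subtracted, Cyp4a1 and Cyp4a3 varied together over the 40 arrays with r = 0.51. Cyp4a3 and the probe set shared with Cyp4a2 had r = 0.74, and Cyp4a1 and that shared probe set 0.10. The 2 probe sets of Cyp4a8 had r = 0.57 and those of Cyp4v3 0.48. Vehicle array 2, highest for both Cyp4a8 probe sets, and vehicle array 7, lowest in its group for both of Cyp4v3, weigh on these values. Each pair shares the array and its RNA. The measure was also taken for 5805 brighter genes other than the 7 members. Those most like Cyp4a1 were Ehhadh, the peroxisomal bifunctional enzyme (r = 0.66), Btd, the biotin-recycling enzyme (0.57), and Eci1, a mitochondrial enoyl-CoA isomerase (0.57). After them came Vdac1, a channel of the outer mitochondrial membrane (0.50), and Prlr, the prolactin receptor (0.49). After quantile normalization Btd stood at place 5 and Prlr at place 9 of this order, so the 5 named hold for the deposited scale.

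The enzymes that act with and after the Cyp4 hydroxylases were described from lists of genes, 1 probe set per gene. Of 10 measured genes for electron supply to P450 enzymes and for turning omega-hydroxy acids into dicarboxylic acids, 5 rose and 1 fell at 10 mg/kg, where 18.2% and 5.86% of all probe sets did. Their median log2 change was 0.55, or 0.33 once quantile normalized, against 0.26 and -0.01 for all probe sets. The middle dose also gave 5 that rose and 1 that fell, set against 9.13% and 3.03% over the array, and the lowest gave 0 of either. Por, the reductase that feeds electrons to microsomal P450 enzymes, rose 2.96-fold, with 8.32 ± 0.23 at 10 mg/kg and 6.75 ± 0.40 with vehicle (log2, SD, n = 10 each). Aldh3a2, the fatty aldehyde dehydrogenase, rose 1.75-fold, Adh1, an alcohol dehydrogenase, 1.36-fold, and Aldh1a1, a cytosolic aldehyde dehydrogenase, 10.6-fold. Adh7, another alcohol dehydrogenase, rose 3.11-fold at a dim level, and Aldh1b1, a mitochondrial aldehyde dehydrogenase, fell by 0.79 on the log2 scale.

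All 7 measured genes for the breakdown of dicarboxylic acids in peroxisomes rose at the highest dose, set against 18.2% of all probe sets. Their median log2 change was 1.84, or 1.56 once quantile normalized. The middle dose gave 6 that rose, beside 9.13% of all probe sets. The lowest dose gave 1, Ehhadh, beside 0.0387%. At 10 mg/kg Ehhadh rose 8.77-fold, Acot8, a peroxisomal thioesterase, 4.77-fold, Abcd3, a peroxisomal importer of fatty acids, 4.19-fold, and Crot, the carnitine octanoyltransferase, 3.59-fold. Hsd17b4, the D-bifunctional protein, rose 2.15-fold and Acsl1, a long-chain acyl-CoA synthetase, 1.38-fold. Abcd2, another peroxisomal importer, passed the test at a dim level (2.02 at 10 mg/kg and 1.58 with vehicle).

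Another list held 8 genes, those for epoxides, the other P450 products of arachidonic acid, together with Cyp2u1, a fatty acid hydroxylase. Of these 2 rose and 2 fell at 10 mg/kg, beside 18.2% and 5.86% of all probe sets, so the number that rose was near the share over the array. Cyp2j4 rose 3.76-fold and Cyp2j3 1.74-fold, both epoxygenases of family 2. Cyp2c11, the male-specific epoxygenase of rat liver, fell by 0.71 and Cyp2u1 by 0.84 on the log2 scale. Ephx2, the soluble epoxide hydrolase, averaged 9.91 ± 1.88 at 10 mg/kg and 8.38 ± 0.23 with vehicle, and passed on the deposited scale (adjusted p = 0.0156) but not after quantile normalization (adjusted p = 0.0823).

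**Figure D5:**
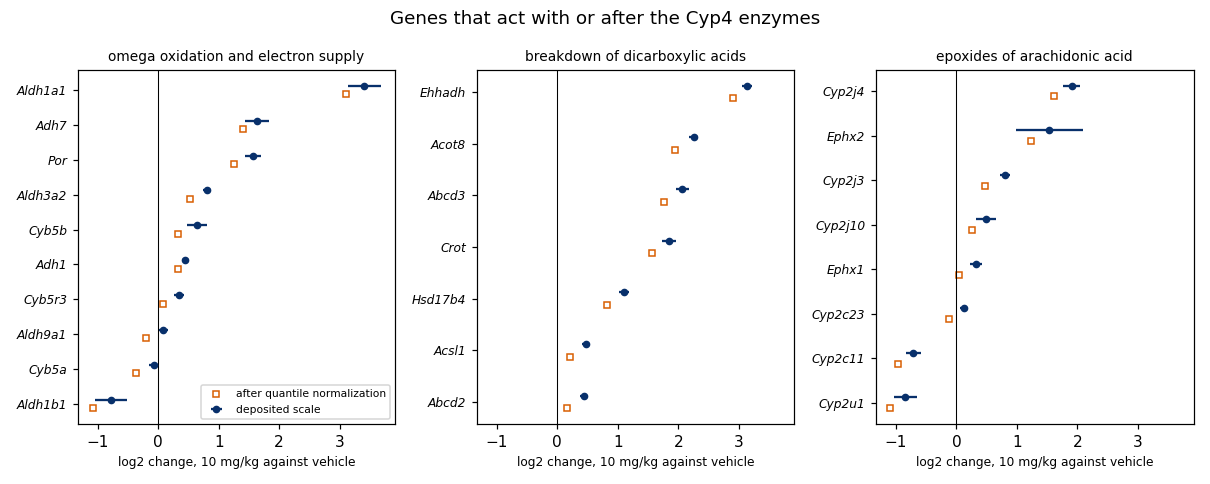
Log2 change at 10 mg/kg of GW7647 against vehicle (horizontal axes) for genes of omega oxidation and electron supply, of dicarboxylic acid breakdown and of epoxide metabolism with Cyp2u1. Filled points with bars are the deposited scale with its standard error (n = 10 each) and open squares are values after quantile normalization; Aldh1a1, Ehhadh and Cyp2j4 head their panels at 3.41, 3.13 and 1.91.

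Among 19 measured P450 genes of other families, 5 rose and 3 fell at 10 mg/kg. With 18.2% of all probe sets rising and 5.86% falling in that comparison, the number that rose was near the share over the array. Cyp17a1, the steroid 17-hydroxylase and lyase, rose 7.01-fold, Cyp7a1, which starts bile acid synthesis, 3.02-fold, and Cyp8b1, the sterol 12-hydroxylase, 2.26-fold. Cyp3a2, a steroid and drug hydroxylase, rose 1.43-fold, and Cyp7b1, an oxysterol hydroxylase, 1.49-fold at a dim level. Cyp3a9 fell by 2.36 on the log2 scale, Cyp1a2 by 1.00 and Cyp3a18 by 0.73, all of them drug-metabolizing enzymes. The middle dose gave 2 that rose and 1 that fell, beside 9.13% and 3.03% of all probe sets, so these numbers were near the shares over the array. The lowest dose gave 0 of either. Of 4 receptor genes, Nr1i3, which encodes the constitutive androstane receptor, rose 2.28-fold at 10 mg/kg. A count of 1 in 4 was near the 18.2% of all probe sets that rose. Ppara itself was dim, at 2.62 ± 0.21 at 10 mg/kg and 2.17 ± 0.23 with vehicle, and did not pass on both scales.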

How the data were processed

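Each of 40 rat livers, 10 per group, was read on its own array, and the labels gave groups and doses. The deposited values are log2 expression per probe set. The submitters' processing notes name GCRMA and Partek, with no version given in the sources used here. Because GCRMA subtracts a background modelled from probe sequence, dim probe sets sit near a floor. Arrays have no read depth, and their number limits the precision.

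All 31042 probe sets other than 97 controls were fitted in R 4.3.3 with limma 3.58.1, which left 36 residual degrees of freedom after lmFit and eBayes. There were 5 two-sided contrasts, each Benjamini-Hochberg adjusted. The fit was also run after quantile normalization, and a rise or fall had to pass at 0.05 on both scales. The test of 10 mg/kg against vehicle was also run on simulated data with independent normal noise for each probe set. That simulation held no shift of whole arrays and no outlying array, so it cannot speak for those features. No result here rests on it. Symbols came from the platform annotation, updated through Entrez numbers in a RefSeq table of GRCr8, which matched 18983 of 31042 probe sets; 572 probe sets named several genes and 11407 were unnamed here. For genes outside the family, the probe set with the highest mean was used. The named genes were all members, the other Cyp4 probe sets, the 5 genes most like Cyp4a1, and every gene of the enzyme and receptor lists that passed at 10 mg/kg. Ephx2, Ppara and the cell markers were named after their values were seen. The members, lists and tests were chosen with earlier results of these data known.

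The replicate numbers were checked as pairs. Of 60 pairs of same-numbered arrays 13 had a correlation of deviations over 0.1 (median 0.03, highest 0.37). On average, 10 of 40 arrays correlated best with arrays of their own number, out of the 10 numbers compared. How many would do so without a link was not computed. These values therefore cannot show whether the numbers link arrays or not. The main fit used no pairing, and a fit with the replicate number as a block was also run. Figures were drawn with matplotlib 3.10.9 in Python 3.11.15.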

Additional observations from a re-analysis of the deposited data

Results flagged for a closer look

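Of the 52 groups of 10 arrays examined (13 Cyp4 probe sets in 4 groups), 8 held an array whose gap to its nearest neighbour was large against the group's range by Dixon's test, where chance flags about 1 in 20 groups. Vehicle array 7 read 2.44 for the brighter Cyp4v3 probe set, with the next vehicle value at 8.58, and 3.73 for the dimmer one, with the next at 4.43. Vehicle array 2 read 4.98 for the brighter Cyp4a8 probe set, with the next at 3.39, and 2.96 for the dimmer one, with the next at 2.40. At 0.1 mg/kg, array 10 read 3.82 for the brighter Cyp4a8 probe set and 2.09 for the probe set shared by Cyp4f5 and Cyp4f37. At the same dose array 8 read 10.06 for Cyp4f6. Vehicle array 1 read 2.29 for Cyp4f17.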

How the results depend on the processing

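The rises of Cyp4a1 at all 3 doses and of Cyp4a3 at 1 and 10 mg/kg kept their direction and their call under every alternative run, and so did the 10 mg/kg falls of Cyp4a8 (brighter probe set), Cyp4b1, Cyp4f1 and Cyp4v3 (dimmer probe set) where these probe sets were tested. The counts of member probe sets moved as follows. At 1 mg/kg the 3 lower became 0 with only probe sets at log2 5 or more, 1 with arrays 1 to 4 and 0 with arrays 5 to 10 of that group. Without vehicle replicate 7 after quantile normalization they became 6. With all arrays after quantile normalization 4 were lower, beside 10.1% of all probe sets, against 3.03% as deposited. The share of all probe sets without that array is not given. At 10 mg/kg the 4 lower became 1 with the same filter, which leaves 5 of the 9. From 0.1 to 1 mg/kg the 0 lower became 2 with quantile normalization, alone, with the replicate block or with arrays 1 to 4, and 1 with a common median or with arrays 5 to 10 after quantile normalization. From 1 to 10 mg/kg the 2 higher on the deposited scale became 1 after quantile normalization (also with the replicate block), with the filter, with 1 probe set per gene and with arrays 5 to 10. They became 0 with a common median, hybridisation control scaling, arrays 1 to 4, and either set of arrays after quantile normalization. The 2 lower became 1 with the filter, 1 probe set per gene and arrays 1 to 4.

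Signs turned for small changes. For Cyp4f1 at 1 mg/kg the value was -0.15 after quantile normalization, also with the replicate block and without vehicle replicate 2, -0.22 with arrays 1 to 4 and -0.16 without vehicle replicate 7. From 0.1 to 1 mg/kg it was -0.16, also with the replicate block, and -0.24 with arrays 1 to 4. For Cyp4f4 at 10 mg/kg it was -0.29 after quantile normalization, also with the replicate block and without vehicle replicate 2, -0.33 without vehicle replicate 7 and -0.23 with a common median. For Cyp4v3 brighter at 1 mg/kg it was -0.60 without vehicle replicate 7 after quantile normalization. The dimmer Cyp4a8 probe set, called under no alternative at 10 mg/kg, turned to between -0.15 and -0.23 under the common median, hybridisation control scaling and every quantile-normalized fit. The cause was not tested.

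The replicate block changed no other count by over 1.5 times. On average, 10 of 40 arrays correlated best with the arrays of their own number. Leaving out a vehicle array, either set of 1 mg/kg arrays after quantile normalization, and the block after quantile normalization were chosen after seeing the data. Any normalization of dose groups apart from each other cannot be told apart from the dose. Signal near the array median limits Cyp4a8, Cyp4f17 and the probe set of Cyp4f5 and Cyp4f37.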
